A study of Saccharomyces cerevisiae with 16 samples.

Results

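Put3 is the zinc cluster activator of proline use in budding yeast, and its binding was followed across the genome in the library titled PUT3. All 4740 nuclear regions between neighbouring genes in that library's table were examined, out of 16 libraries in the series, of which 12 each carry a different factor. The calling-card assay marks binding with a transposon. Put3 was joined to Sir4, a silencing protein to which the integrase of the yeast retrotransposon Ty5 binds, so Ty5 inserts close to DNA that the fusion occupies. The haploid strain BY4741 lacked SIR4 and the chromosomal PUT3 gene (sir4D put3D). The fusion was made from a LEU2 and URA3 plasmid by the constitutive ADH1 promoter, and Ty5 came from a HIS3 plasmid, driven by the galactose-inducible GAL1/10 promoter. The other 11 factor libraries were made in the same way, each in BY4741 with sir4D and a deletion of its own factor gene: gal4D, leu3D, yrm1D, yrr1D, tea1D, lys14D, cat8D, cha4D, urc2D, hal9D or aro80D. The fusion was thus not under the promoter of PUT3, and since every group has 1 library, differences have no replicate check.

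In yeast, Put3 sits on its target promoters as a dimer whether or not proline is present, and activates them when proline is available and better nitrogen sources are scarce. Its classical targets are PUT1, which encodes the mitochondrial proline oxidase, and PUT2, which encodes the dehydrogenase that finishes the conversion of proline to glutamate. Glutamate can then be split to ammonia and 2-oxoglutarate by the NAD-dependent glutamate dehydrogenase Gdh2.

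The Put3 library held 23769 insertions, of which 17003 (71.5%, exact 95% binomial interval 71.0 to 72.1) lay in nuclear intergenic regions. The authors' background set held 84109 insertions, with 64.3% in the same regions. The median region held 1 Put3 insertion, 1623 regions held none, 418 held 10 or more and 4 held 100 or more. The fold over background is the region's share of all Put3 insertions divided by its share of all background insertions, and 1 insertion is worth 4.21 per 100000 in the Put3 library. Folds carry exact 95% intervals, which cover counting error only, because PCR recovery without molecular tags does not make insertions independent. Each region with at least 5 insertions in the library and the background together was tested by Fisher's exact test, two-sided throughout. A region was called enriched at a Benjamini-Hochberg adjusted p of 0.05 or less, a fold above 1 and at least 5 Put3 insertions. The test compares 2 sets of insertions and not replicated conditions. Coordinates are those of the deposited table.

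Of 3021 regions tested, 24 (0.794%) were enriched and 2 (0.0662%) were lower than background. The count was 72 with the authors' Poisson p at 0.001 or less, which held all 24, and 111 with the sum of the 11 other factor libraries in place of the background, which held 20 of them. The 24 held 2153 insertions, 9.06% of the library (8.70 to 9.43), against 0.788% of the background. Of these regions, 15 lay on chromosome XII within 100 kb of the PUT1 promoter and 9 lay elsewhere, a division made after the values were seen. The 15 held 6.53% of the library's insertions (6.22 to 6.86) and the 9 held 2.52% (2.33 to 2.73). The remaining 4716 regions together stood at 0.984-fold (0.966 to 1.002), and the median fold of all regions tested was 0.885.

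**Figure D1:**
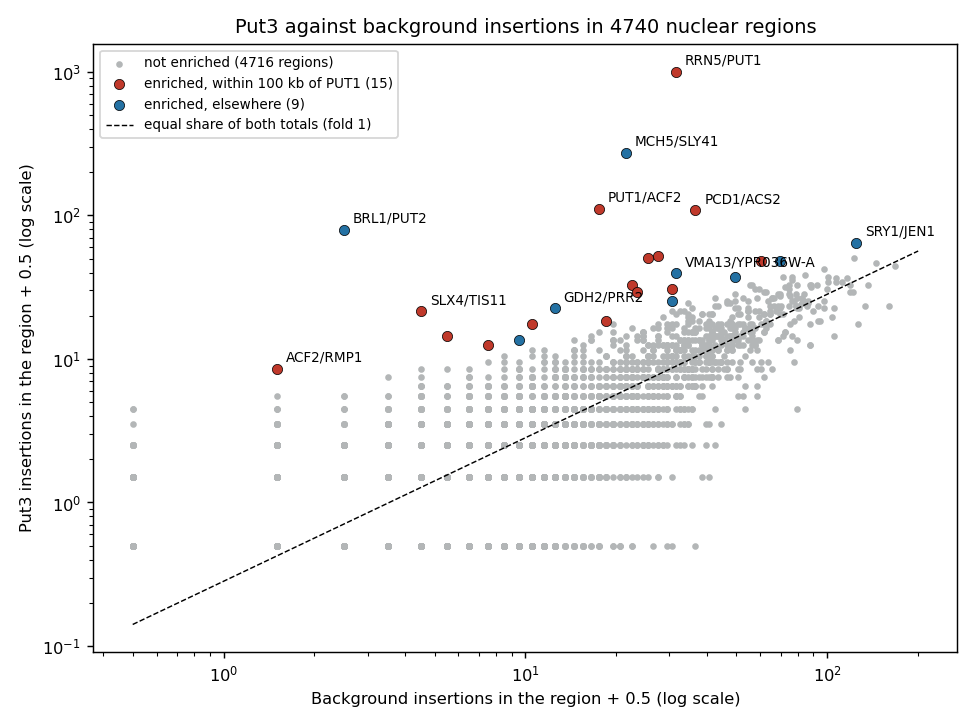
Put3 insertions (vertical axis, log scale) against background insertions (horizontal axis, log scale) in the 4740 nuclear regions, with 0.5 added to each count. Grey points are regions not enriched, red points the 15 enriched regions within 100 kb of PUT1 and blue points the other 9; the dashed line marks equal shares, and PUT1 with 1004 insertions, MCH5 with 273 and PUT2 with 79 stand farthest above it.

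The promoters of both proline-use enzymes led the library. The PUT1 promoter (RRN5/PUT1, chromosome XII 424774 to 425186, 413 bp, between the end of RRN5 and the start of PUT1) held 1004 Put3 insertions against 31 in the background. It took 4.22% of all insertions (3.97 to 4.49), at 115-fold over background (80.2 to 170), and had the highest density of insertions per kb of the 24 regions. Against the 11 other factor libraries summed, its fold was 41.0. Its adjusted p was too small for double precision to hold (Fisher's exact test). The PUT2 promoter (BRL1/PUT2, chromosome VIII 181760 to 181977, 218 bp) held 79 insertions against 2, at 140-fold (37.4 to 1174; adjusted p = 1.72e-46 by Fisher's exact test). Its rank was 5 by insertions, 2 by density and 1 by fold. The intervals of PUT1 and PUT2 overlap, so the order of their folds is not resolved at this depth. PUT2 stood at 72.0-fold against the other libraries summed.

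The region next to PUT1 in number of insertions held the promoter of MCH5, which encodes the riboflavin transporter of the plasma membrane. Riboflavin is the precursor of FAD, the cofactor of proline oxidase, and MCH5 has been described as a Put3-regulated gene. MCH5/SLY41 (chromosome XV 891432 to 892731) held 273 insertions against 21, at 46.0-fold (29.5 to 75.5; adjusted p = 7.58e-148 by Fisher's exact test). Against the other libraries summed, the fold was 29.3. Gene orientation places the promoter of MCH5, and not that of the transport gene SLY41, in this region. The next step after PUT2 in the use of proline, GDH2, was also enriched. GDH2/PRR2 (chromosome IV 73918 to 74446) held 22 insertions against 12, at 6.49-fold (3.07 to 14.4; adjusted p = 3.12e-05 by Fisher's exact test). Unlike PUT1, PUT2 and MCH5, it lost the call and turned below 1 against the other libraries summed, at 0.638-fold.

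The other 6 enriched regions away from PUT1 had folds of 1.83 to 5.11. VMA13/YPR036W-A (chromosome XVI 645272 to 645950) held 39 insertions against 31, at 4.45-fold (2.71 to 7.38). By orientation it holds the promoter of YPR036W-A and lies after the end of VMA13, a gene of the vacuolar proton pump. CIS3/FAR1 (chromosome X 122948 to 123836) held 48 against 69, at 2.46-fold (1.67 to 3.61), and by orientation holds the promoter of the cell wall gene CIS3. The authors' deposited table also gives counts over wider regions, whose extent is not given in the sources used here, and there CIS3/FAR1 held 82 against 73, at 3.97-fold. VMA13/YPR036W-A then held 46 against 67, at 2.43-fold, and over the first regions it turned to 0.216-fold against the other libraries summed. RAX1/YOR302W (chromosome XV 882272 to 882765) held 37 against 49, at 2.67-fold (1.70 to 4.18). YOR302W is the upstream reading frame of CPA1, which encodes a subunit of the carbamoyl phosphate synthetase of arginine synthesis, and the region lies 9.56 kb from the centre of the MCH5 region. HXT6/HXT3 (chromosome IV 1161320 to 1162957), with the promoter of a glucose transporter gene, held 25 against 30, at 2.95-fold (1.66 to 5.19), and lost the call against the other libraries summed (1.15-fold), with intergenic totals and at an adjusted p of 0.01. HXT6 has a near-identical neighbour, HXT7, and how reads that fit both were placed is not given in the sources used here. RPL16A/CSM2 (chromosome IX 99416 to 100501), with the promoter of a ribosomal protein gene, held 13 against 9, at 5.11-fold (2.02 to 13.5). SRY1/JEN1 (chromosome XI 18339 to 22234), the divergent promoter region of an amino acid dehydratase gene and the lactate transporter gene, held 64 against 124. Its fold of 1.83 (1.33 to 2.49) was the lowest of the 24, and the call was lost at an adjusted p of 0.01, with intergenic totals, with a minimum fold of 2, and without the 100 kb around PUT1. Against the other libraries summed SRY1/JEN1 turned to 0.640-fold. It was the one enriched region within 30 kb of a chromosome end. The 243 regions within 30 kb of an end together stood at 0.922-fold (0.858 to 0.991).

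**Figure D2:**
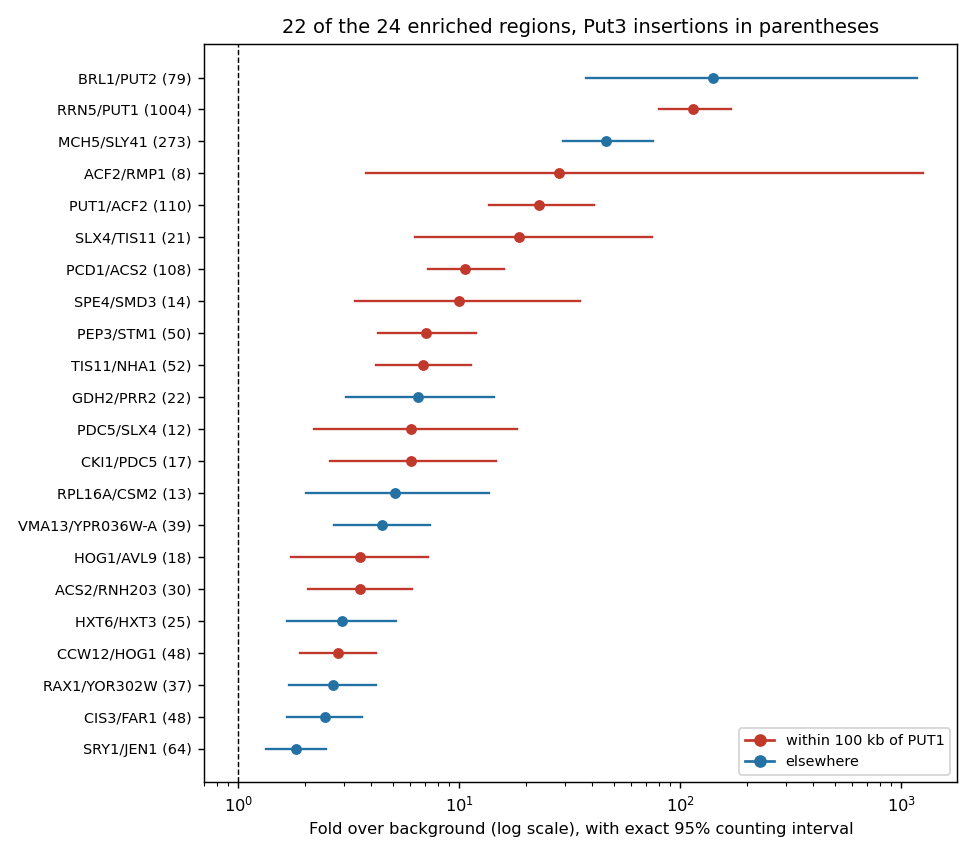
Fold over background (horizontal axis, log scale) of 22 of the 24 enriched regions in order of fold, with exact 95% counting intervals as lines and Put3 insertions in parentheses. Red marks regions within 100 kb of PUT1 and blue the others; PUT2, PUT1 and MCH5 head the list at 140-fold, 115-fold and 46.0-fold, and 16 of the other 19 folds shown lie at 10.6 or below.

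The surroundings of PUT1 held most of the remaining enriched regions. From CCW12/HOG1 to ACS2/RNH203 (chromosome XII 370098 to 447982), a stretch of 77.9 kb that reaches 54.9 kb to the left of the PUT1 promoter's centre and 23.0 kb to its right, 15 of 23 tested regions were enriched. Without the PUT1 promoter itself, the regions of this stretch held 598 insertions against 344, at 6.15-fold (5.38 to 7.04), and 20 of its 22 tested regions had a fold above 1. The edges of the stretch were drawn from the enriched regions, so these values describe it and do not test it.

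To the right of PUT1, PUT1/ACF2 (chromosome XII 426616 to 429677) lies between the ends of both flanking genes. It also holds DPH6, a gene of diphthamide synthesis, and had 110 insertions against 17, at 22.9-fold (13.7 to 40.7; adjusted p = 3.73e-51 by Fisher's exact test). ACF2/RMP1, the divergent promoter region of a glucanase gene and an RNase MRP subunit gene, held 8 against 1 (28.3-fold, 3.80 to 1256), or 10 against 4 over the wider region (8.85-fold). SPE4/SMD3, with the promoter of the spermine synthase gene, held 14 against 5 (9.91-fold, 3.37 to 35.1). PEP3/STM1, with the promoter of the ribosome-associated STM1, held 50 against 25 (7.08-fold, 4.30 to 11.9). PCD1/ACS2 (chromosome XII 442737 to 445524) held more, with 108 against 36 (10.6-fold, 7.22 to 15.9), although it lies 19.2 kb from PUT1. Its fold was 2.56 against the other libraries summed. PCD1 encodes a peroxisomal nudix hydrolase, and by orientation the region does not hold the ACS2 promoter. The region also spans the gene YLR152C, so its insertions cannot be assigned to the PCD1 promoter alone. The promoter of ACS2, which encodes acetyl-CoA synthetase, lies in ACS2/RNH203, with 30 against 30 (3.54-fold, 2.06 to 6.08).

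To the left, SLX4/TIS11, between the ends of both its flanking genes, held 21 insertions against 4 (18.6-fold, 6.27 to 74.4), or 36 against 14 over the wider region (9.10-fold). TIS11/NHA1, a region with the promoters of an iron-responsive RNA-binding protein gene and a sodium antiporter gene, held 52 against 27 (6.82-fold, 4.20 to 11.3). PDC5/SLX4, with the promoter of an endonuclease subunit gene, held 12 against 7 (6.07-fold, 2.20 to 18.2). CKI1/PDC5, with the promoter of a pyruvate decarboxylase gene, held 17 against 10 (6.02-fold, 2.60 to 14.7). The farthest were HOG1/AVL9 (18 against 18, 3.54-fold, 1.74 to 7.21) and CCW12/HOG1 (48 against 60, 2.83-fold, 1.90 to 4.21), at 51.0 and 54.1 kb from PUT1. The region next to the PUT1 promoter on the left, SLS1/RRN5, held 9 against 7 (4.55-fold, 1.51 to 14.4) and did not pass the test (adjusted p = 0.190 by Fisher's exact test). It was called with the authors' Poisson p and against the other libraries summed, as was SMD3/PEP3 on the right, with 7 against 3.

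Pooled by distance between region centres, regions within 10 kb of PUT1 stood at 7.73-fold on the left (5.20 to 11.7) and 19.1-fold on the right (12.5 to 30.2). Without PUT1/ACF2, the right side stood at 11.8-fold (5.46 to 28.2). From 10 to 25 kb the folds were 5.11 (3.67 to 7.16) and 7.19 (5.59 to 9.31). From 25 to 50 kb the left side stood at 2.12-fold (1.27 to 3.50), while the single region on the right held no insertion in either set. That gap is where the reference chromosome carries the ribosomal DNA and the ASP3 repeats. Distances beyond it on the right are those of the deposited coordinates, and the length of these repeats in the strain was not measured. The right-side windows past the gap therefore cannot be matched in distance to those on the left. From 50 to 100 kb the fold was 2.17 on the left (1.76 to 2.67) and 1.21 on the right (0.934 to 1.55). From 100 to 200 kb it was 1.26 (1.05 to 1.50) and 1.20 (0.974 to 1.47). The windows within 25 kb hold 4 or 5 regions a side, so single regions weigh heavily in them. From 10 to 25 kb on the right, PCD1/ACS2 alone gave 108 of 191 insertions, and the fold without it was 5.06 (3.58 to 7.21). Chromosome XII as a whole stood at 2.23-fold (2.13 to 2.34), against 0.679-fold to 1.18-fold for the other chromosomes, and at 1.09-fold (1.02 to 1.16) without the 77.9 kb stretch.

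The surroundings of the other strong promoters showed smaller excesses. Within 10 kb of MCH5 the pooled fold was 2.25 (1.62 to 3.12), from 63 insertions against 99, and 1.84 (1.10 to 3.01) without RAX1/YOR302W. From 10 to 25 kb it was 1.60 (1.25 to 2.05) and from 25 to 50 kb 0.812 (0.566 to 1.14). Within 10 kb of PUT2 it was 2.31 (1.53 to 3.44), from 43 insertions against 66, and from 10 to 25 kb it was 0.685 (0.336 to 1.28). Within 10 kb of GDH2 it was 1.01 (0.515 to 1.86). Of the 3 neighbours on each side of MCH5, none of the 4 with enough insertions was enriched, and the same held for PUT2. Both counts are near the 0.794% of all regions tested, and these neighbours held 14 Put3 insertions or fewer, so small excesses could not be called. RRM3/ERC1 beside PUT2 was called with the authors' Poisson p, and SLY41/SNU66 beside MCH5 against the other libraries summed. Beside PUT2, RRM3/ERC1 held 10 against 10 (3.54-fold, 1.32 to 9.47) and ERC1/PIH1 14 against 24 (2.06-fold, 0.987 to 4.15). Beside MCH5, SLY41/SNU66 held 11 against 14 (2.78-fold, 1.14 to 6.59). Around PUT1, 3 of the 4 tested neighbours were enriched, against 0.794% of all regions tested.

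**Figure D3:**
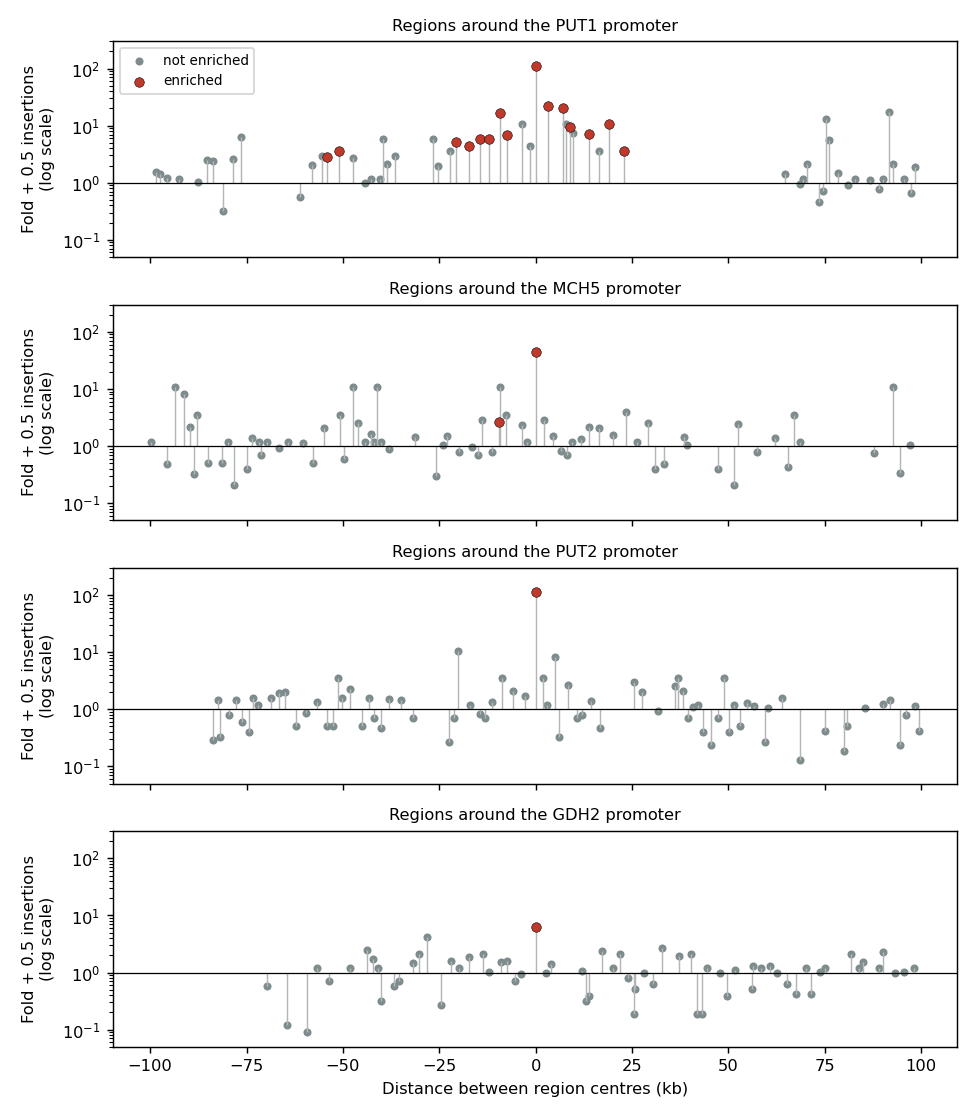
Fold over background of each region with at least 1 insertion (vertical axis, log scale, with 0.5 added to both counts) by its distance in kb from the centre of the PUT1, MCH5, PUT2 or GDH2 promoter region. Red points are enriched regions and grey points the rest; 15 red points spread from 54.1 kb on the left to 22.8 kb on the right of PUT1, while MCH5 has a single further one and PUT2 and GDH2 have none.

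The same distances were read in the other factor libraries. Within 10 kb of PUT1, and without the PUT1 promoter, the other 11 libraries stood at 0.144-fold (Cha4) to 0.884-fold (Lys14). From 10 to 25 kb they stood at 0.585-fold (Tea1) to 1.46-fold (Hal9), except for Gal4 at 7.38-fold (6.09 to 8.99), where PCD1/ACS2 held 346 of 361 insertions. Around their own top regions, 7 of the other 11 libraries had an interval above 1 within 10 kb and 4 did not. The fold was 44.0-fold (34.9 to 56.1) for Cha4 at CHA1/VAC17, 25.5-fold for Tea1 at ARP7/GLN1 and 8.16-fold for Aro80 at ARO10. In the Tea1 window, VMA13/YPR036W-A alone held 806 of 908 insertions, so that fold rests mostly on 1 region. For Lys14, Hal9, Cat8 and Leu3 the fold was 5.89, 5.79, 2.62 and 2.43. For Yrm1 it was 1.31-fold (0.974 to 1.76) and for Yrr1 1.20-fold (0.801 to 1.77). It was 0.660-fold (0.396 to 1.05) for Gal4 at EMP46/GAL2 and 1.05-fold for Urc2 at URA2/TRK1. From 10 to 25 kb, Cha4 stood at 7.12-fold (5.12 to 9.96) and Put3 at 6.36-fold (5.21 to 7.78), with overlapping intervals.

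Apart from PUT1, PUT2 and GDH2, no listed gene of proline or nitrogen metabolism was enriched by the test against background. With the authors' Poisson p, DUR1,2 was called as well. Against the other libraries summed, DUR1,2 (2.89-fold) and DAL5 (2.84-fold) were called and GDH2 was not. Of 6 proline-use genes (PUT1, PUT2 and 4 permease genes), 2 were enriched, against 0.794% of all regions tested. The promoter of PUT4, the high-affinity proline permease, held 25 insertions against 86 (1.03-fold, 0.631 to 1.62). Against the other libraries summed it stood at 0.172-fold (adjusted p = 9.38e-31 by Fisher's exact test), lower in Put3. The promoters of GLN1 (0.149-fold), MEP3 (0.228-fold), UGA1 (0.370-fold) and GAT1 (0.398-fold) were also called lower against that reference. It holds the insertions of the other factors, and none of these promoters was lower than background. GAP1, the general amino acid permease, held 22 against 69 (1.13-fold, 0.665 to 1.85). AGP1 and GNP1, broad-range permeases, held 17 each, at 1.28-fold (0.689 to 2.27) and 0.970-fold (0.532 to 1.68). The proline synthesis genes PRO1, PRO2 and PRO3 held 1, 0 and 0 Put3 insertions against 2, 4 and 1, too few to test. CAR1 and CAR2, the arginase and ornithine transaminase genes whose products feed arginine into proline metabolism, stood at 0.997-fold (0.575 to 1.66) and 0.843-fold (0.248 to 2.30).

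Of 8 genes of glutamate and ammonia use, 1 was enriched, GDH2, where 0.794% of all regions tested were, and the list's median fold was 1.19 against 0.885 for all regions tested. The biosynthetic dehydrogenase genes GDH1 and GDH3 stood at 0.970-fold and 0.885-fold, the glutamine synthetase gene GLN1 at 0.691-fold (0.385 to 1.17), and the ammonium permease gene MEP2 at 1.45-fold (1.02 to 2.03; adjusted p = 0.525 by Fisher's exact test). By the test against background, none of the 7 tested promoters of nitrogen regulators was enriched (median 1.77-fold), a count near the 0.794% of all regions. The PUT3 promoter lies beside the gene deleted in this strain (put3D), and whether the deletion reached into the region was not examined. It held 0 insertions against 12, with an upper bound of 1.27-fold, a difference from background not detectable at this depth. None of 10 tested regions of other nitrogen-source genes was enriched over background (median 1.07-fold), which is likewise near 0.794%. The highest of these was DUR1,2, the urea amidolyase gene, with 19 against 28 (2.40-fold, 1.27 to 4.46; adjusted p = 0.227 by Fisher's exact test). Sequences also carried on the plasmids were not enriched in the genome. The ADH1 promoter region held 9 insertions against 77 (0.414-fold, 0.182 to 0.827; adjusted p = 0.331 by Fisher's exact test), the GAL10/GAL1 region 5 against 15 and the SIR4 promoter 6 against 15.

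**Figure D4:**
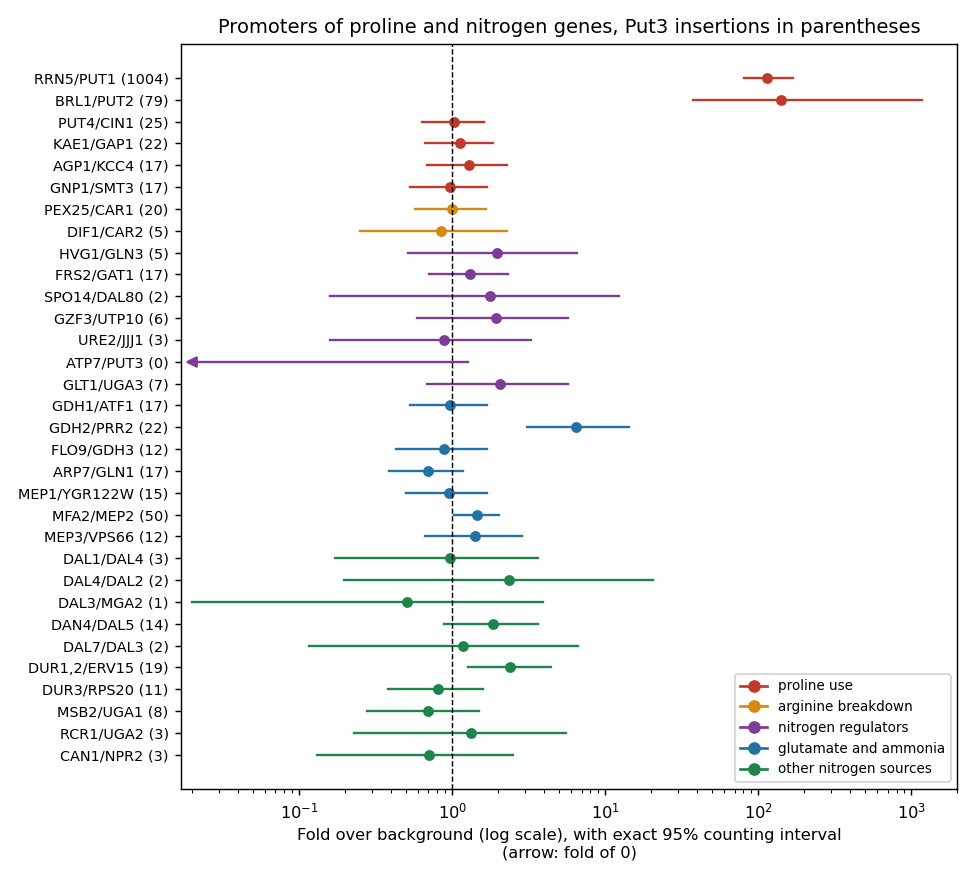
Fold over background (horizontal axis, log scale) with exact 95% counting intervals for the tested promoter regions of proline and nitrogen genes, coloured by gene list, with Put3 insertions in parentheses. PUT1, PUT2 and GDH2 lie above 5-fold; the other regions, the PUT3 promoter at 0 included, lie at 2.40-fold or below.

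The enriched regions were longer and more often used by the background than regions tested overall. Their median length was 878.5 bp against 628 bp, and their median background count 22.5 against 11. The rule for a call needs at least 5 Put3 insertions, and the median region tested held 3. Longer and more used regions therefore pass it more easily, and these differences were not separated from that. By gene orientation 5 were divergent, 16 tandem and 3 convergent, the last class without a promoter of either flanking gene. Over all regions tested the shares were 33.5%, 57.3% and 9.24%. The 3 convergent regions, PUT1/ACF2, SLX4/TIS11 and HOG1/AVL9, all lay near PUT1, and all 9 enriched regions elsewhere held at least 1 promoter. The regions just inside the threshold were RPL16A/CSM2, SRY1/JEN1 and HOG1/AVL9, with 13, 64 and 18 Put3 insertions and adjusted p of 0.0231, 0.0231 and 0.0390. Just outside lay CTS1/RPS30A, HXT11/HPF1 and PUB1/PBI2, with 17, 8 and 24 Put3 insertions and adjusted p of 0.0952, 0.116 and 0.116 (Fisher's exact test for all 6). The 2 regions lower than background were RMD1/NTH1, which spans the centromere of chromosome IV, with 4 Put3 insertions against 79 (0.179-fold, 0.0476 to 0.477), and the telomere-near YRF1-7/PAU22, with 0 against 36 (upper bound 0.382-fold).

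Put3 insertions were then compared region by region with each of the other 11 factor libraries, over the 4383 regions that all tables define by one pair of flanking genes. Of 491 regions with 10 or more insertions in every pair, 12 (2.44%) were higher in Put3 than in each of the others (Fisher's exact test, adjusted within each pair), and all 12 were among the 24 enriched regions. They were the promoters of PUT1, PUT2 and MCH5, RAX1/YOR302W, and 8 more regions around PUT1, among them PUT1/ACF2, SLX4/TIS11, TIS11/NHA1, PEP3/STM1, SPE4/SMD3 and CCW12/HOG1. Of the enriched regions, ACF2/RMP1 had too few insertions for this comparison. The share of tested regions higher in Put3 differed between pairs. It was 2.14% against Urc2, 2.46% against Cat8, 2.65% against Lys14 and 3.54% against Cha4. It was 7.15% against Hal9, 7.27% against Aro80, 11.2% against Tea1 and 11.3% against Leu3. The largest shares were 23.2% against Yrr1, 24.1% against Yrm1 and 48.3% against Gal4.

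At the PUT1 promoter, Put3 held 4224 insertions per 100000, and the other libraries 10.9 (Cha4) to 249 (Yrm1), with a median of 83.8. The closest library was thus Yrm1, with 78 insertions and a ratio of 16.98 (13.5 to 21.7; adjusted p = 3.99e-268 by Fisher's exact test), so all 11 lay below Put3. Against background, PUT1 was also enriched in the Gal4, Yrm1, Yrr1 and Lys14 libraries. At the PUT2 promoter Put3 held 332 per 100000 and the others 0 to 10.9, with at most 3 insertions in a library. The smallest ratio was 30.4 (8.14 to 255; adjusted p = 2.38e-15 by Fisher's exact test), to Cha4, with 2 insertions. At MCH5/SLY41 Put3 held 1149 per 100000 and the others 10.6 to 177, with a median of 21.9. Tea1 was the highest, with 63 insertions and a ratio of 6.51 (4.93 to 8.70; adjusted p = 1.94e-52 by Fisher's exact test), and MCH5 was enriched over background in Tea1 as well. At PUT1/ACF2 Put3 held 463 per 100000 and the others 0 to 14.6, with a median of 3.82. At RAX1/YOR302W Put3 held 156 per 100000 and the others 7.06 to 42.7, the highest being Hal9 with a ratio of 3.65 (adjusted p = 0.00259 by Fisher's exact test). The narrowest difference among the 12 was at CCW12/HOG1, with 202 per 100000 against 96.0 in Hal9 (adjusted p = 0.0335 by Fisher's exact test).

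Other Put3-enriched regions were used as much or more in another library. GDH2/PRR2 held 92.6 Put3 insertions per 100000 against 1087 in Tea1, a ratio of 0.0851 (0.0527 to 0.131; adjusted p = 1.99e-57 by Fisher's exact test). It was higher in Put3 than in 6 of the 11 libraries, and against Cat8 (66.8 per 100000) the ratio was 1.38 (0.695 to 2.82). PCD1/ACS2 held 454 per 100000 against 1028 in Gal4 (ratio 0.442, 0.353 to 0.550), and was higher in Put3 than in the 10 other libraries. Over background, PCD1/ACS2 was also enriched in 4 other libraries, Gal4 (26.7-fold), Cat8 (3.32-fold), Hal9 (3.12-fold) and Aro80 (2.59-fold). VMA13/YPR036W-A, with 164 per 100000 in Put3, held 2258 in Tea1, 2052 in Yrr1 and 1757 in Yrm1, and was enriched over background in 7 other libraries. SRY1/JEN1 was higher in Tea1 (2197 per 100000) and Cat8 (664) than in Put3 (269), and HXT6/HXT3 was higher in Hal9 (325) and Gal4 (238) than in Put3 (105). CIS3/FAR1, at 202 per 100000 in Put3, stood at 315 in Hal9 and was higher in Put3 than in 9 libraries.

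Over background, 15 of the 24 regions were enriched in no other factor library by the same rule, 12 of them near PUT1 and 3 elsewhere (PUT2, RAX1/YOR302W and RPL16A/CSM2). The same rule gave 27 regions in Cha4 (0.927% of those tested there) and 48 to 132 in the other 10 libraries (1.57% to 4.59%). Few regions of any kind are thus called in a given library. The share of all tested regions called in no other library was not computed, so 15 of 24 is not a measure of preference for Put3. Enriched regions held 9.06% of the insertions in Put3 (8.70 to 9.43), 12.7% in Urc2 (12.3 to 13.1) and 18.9% (Cat8) to 51.9% (Yrr1) in the rest. The top region's share, 4.22% in Put3, lay within the range of the others, from 1.57% (Urc2) to 8.97% (Hal9). The libraries differ in depth, from 18295 to 36063 insertions.

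**Figure D5:**
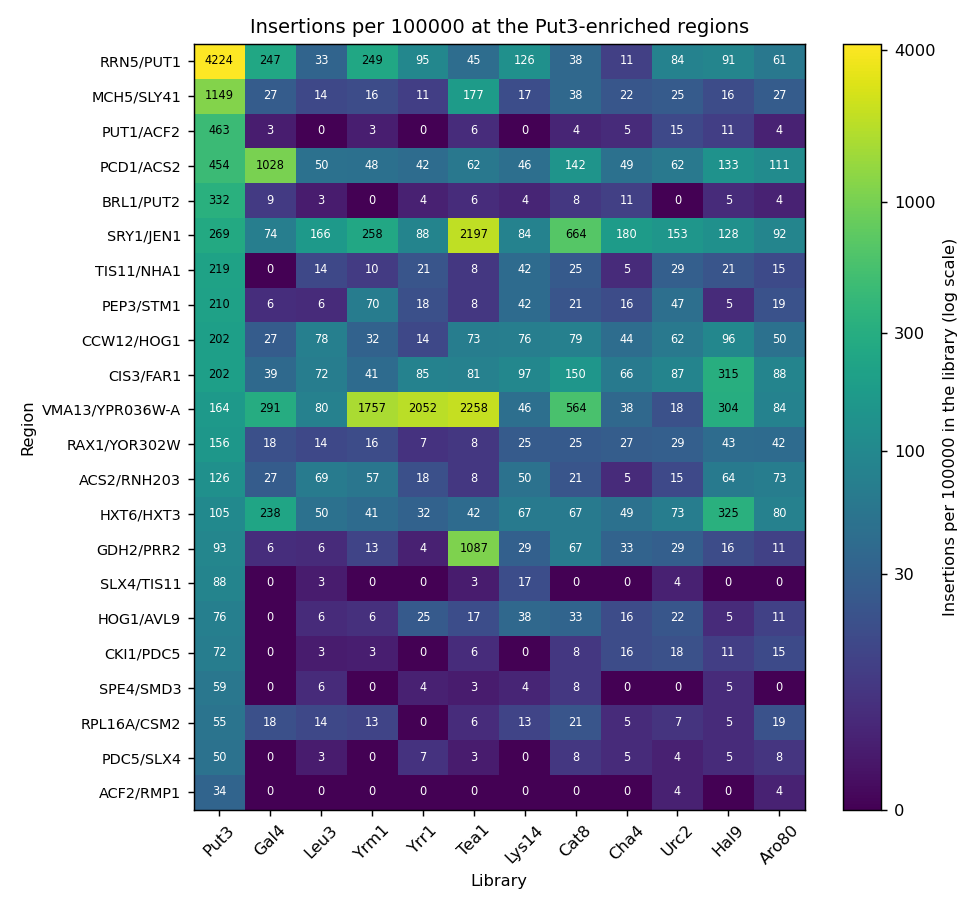
Insertions per 100000 in the Put3 library and the other 11 factor libraries (columns) at 22 of the 24 Put3-enriched regions (rows, ordered by Put3 insertions), with the value printed in each cell and the colour on a log scale. PUT1, MCH5 and PUT2 are high in the Put3 column, whereas GDH2/PRR2, SRY1/JEN1 and VMA13/YPR036W-A are higher in the Tea1 column.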

How the data were processed

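DNA around Ty5 was cut with 3 enzymes, circularised and amplified by inverse PCR, per the labels' protocols, and the submitters' processing notes name Novoalign and sacCer2. The authors deposited a table per library with the count of insertions per intergenic region, in the library and in a background. Per the file headers, the tables also hold the fraction that each count makes of all insertions, which yielded the totals used here, with a hypergeometric p-value and a Poisson p-value. Both edges of 99.4% of nuclear regions equal gene ends in the R64 gene table, so coordinates follow that table more closely than the build named.

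Of 4748 regions, 8 outside the nuclear chromosomes were left out. Promoters were assigned by the strand in the systematic names of the flanking genes, so those of genes inside a region were not counted. Such inner genes include YLR152C in PCD1/ACS2, GID11 in PEP3/STM1, RKM5 in TIS11/NHA1 and YDR344C in HXT6/HXT3. They also include YLR111W and YLR112W in CCW12/HOG1 and YLR146W-A in SPE4/SMD3. The Gal4 table uses another background, of 103922 insertions, so libraries were compared through their own counts. The 4 libraries with a further deletion were not used here. Fisher's exact tests, exact conditional and Clopper-Pearson intervals were computed with Python 3.11.15, scipy 1.17.1, numpy 2.4.6 and pandas 2.3.3, and figures with matplotlib 3.10.9. The test was checked on simulated data with independent insertions, so that check does not cover the dependence between insertions named above. Named were the enriched regions, except 2 that are not reported here by name, the proline, arginine and plasmid lists, neighbours of the strongest regions, those nearest the threshold, and, after their values were seen, further nitrogen genes and regions of other libraries. Members and lists were chosen with earlier results of these data known. Sequence motifs were not analysed here. LEU2, HIS3 and UGA4 had no region of their own.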

Additional observations from a re-analysis of the deposited data

How the results depend on the processing

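The count of 24 enriched regions stayed within 1.5 times under 8 alternatives (19 to 26), 1 of them, the wider regions, added after seeing the data. It became 72 with the authors' Poisson p and 111 with the sum of the 11 other factor libraries as the reference, and 7 without the regions within 100 kb of PUT1 (added after seeing the data), where SRY1/JEN1 and RPL16A/CSM2 no longer passed. All 24 were among the 72, and 20 were among the 111. The share of insertions in enriched regions, 9.06%, moved to 8.50% at an adjusted p of 0.01, 8.61% with intergenic totals, 11.9% with the Poisson p, 13.4% with the other libraries as reference, 10.5% with the wider regions and 2.20% without the 100 kb around PUT1. Against the other libraries, SRY1/JEN1 (0.640), VMA13/YPR036W-A (0.216) and GDH2/PRR2 (0.638) turned below 1, regions with 2197, 2258 and 1087 insertions per 100000 in the Tea1 library, which is part of that reference, and HXT6/HXT3 lost its call. The listed proline and nitrogen regions called numbered 3, and 4 with the Poisson p or the other libraries as reference. The called regions among the neighbours of the strongest regions numbered 7, and 10 under those alternatives. The regions higher in Put3 than in every other library numbered 12, 20 against the other 11 summed, and 9 to 12 otherwise. HOG1/AVL9, HXT6/HXT3 and SRY1/JEN1 lost the call with intergenic totals, which lower every fold by 0.15 on the log2 scale, and at an adjusted p of 0.01, where RPL16A/CSM2 and PDC5/SLX4 lost it too. PUT1, PUT2 and MCH5 kept the call under every alternative that tested them, and GDH2 under all but that with the other libraries as reference. No paired analysis was possible because each group has 1 library. Spacers of the paired motif were not run. With 23769 insertions, low folds at regions with few background insertions were not detectable.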
